A study of Sus scrofa with 9 samples.

Results

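The proteins of the cytoplasmic ribosome were followed as one gene family in the left ventricle of newborn pigs. Members were the rows whose gene name had the form RPL or RPS plus a number, or was RPSA, RPLP0, RPLP1 or RPLP2, with a transcript level of at least 1 TPM in at least 3 of 9 libraries. TPM is a read share corrected for transcript length and scaled to the same total in every library. The name rule matched 47 of the 22629 rows of the table, and 46 passed the filter on TPM, which 12268 rows passed in all. By the prefix of the name alone, 26 of the 46 members are counted to the large (RPL) and 20 to the small (RPS) ribosomal subunit. Whether each paralog among them is part of the ribosome was not tested. All animals were wild type pigs (Sus scrofa) without treatment. Left ventricular myocardium was sampled at birth (day 0) and at days 7 and 15 of age, giving 3 libraries per age, prepared from total RNA with a stranded mRNA kit. The labels do not say whether each library came from its own animal, so p-values measure only the spread between these libraries.

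Each ribosome carries 1 copy of most of these proteins, bound to ribosomal RNA, and cells make them in near equal amounts from separate genes. The mRNAs begin with a terminal oligopyrimidine (TOP) tract, through which the kinase complex mTORC1 and the RNA-binding protein LARP1 set how much of them is translated and how stable they are. In the heart, ribosome number limits how fast cardiomyocytes can add protein as they grow. Some members have paralogs with a restricted range of tissues, of which RPL3L, made in striated muscle, is the best known.

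As TPM share a fixed total, 1 very abundant transcript lowers all others. The most abundant row, an Ensembl identifier that was given no gene name here, took 24.0% to 46.02% of all TPM. It was highest in replicate 1 of day 15, the library in which 36 of the 46 members were the lowest of their age. At day 7 it was highest in replicate 6 (37.2%), where 42 members were lowest. At day 0 it was highest in replicate 4 (34.5%), whereas 39 members were lowest in replicate 5 (32.6%). These counts were not made over all genes, and the part of this row in the members' levels was not tested. All 8 ventricular cardiomyocyte markers were present, with a summed level of 58336 to 64283 TPM at day 0, 45014 to 58267 TPM at day 7 and 46394 to 50654 TPM at day 15. Taken singly, the 8 markers went both ways. Their log2 fold changes at day 15 against day 0 ran from -1.72 to 0.54, with a median of -0.03, and 5 were negative. Summed endothelial markers (6 of 6 present) ranged over 220 to 265 TPM at day 0, 317 to 406 TPM at day 7 and 201 to 245 TPM at day 15. Summed fibroblast markers (6 of 6 present) ranged over 757 to 1155 TPM at day 0, 1310 to 1830 TPM at day 7 and 955 to 1184 TPM at day 15. Atrial markers (3 of 4 in the table) summed to 567 to 2957 TPM at day 0, 147 to 2327 TPM at day 7 and 174 to 651 TPM at day 15. Macrophage and lymphocyte markers (6 of 6 in the table) summed to 15.8 to 19.5 TPM at day 0, 20.9 to 31.0 TPM at day 7 and 16.3 to 42.6 TPM at day 15, the highest in replicate 2 of day 15. Erythroid markers (5 of 6 in the table) summed to 394 to 1266 TPM at day 0, 555 to 1218 TPM at day 7 and 435 to 660 TPM at day 15. The part of these differences in the results below was not tested, and in whole tissue fewer cells of a type and less RNA per cell cannot be told apart.

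Ribosomal protein transcripts were abundant at every age. By the mean over 9 libraries, 40 of the 46 members reached 100 TPM, 16 reached 500 TPM and 4 reached 1000 TPM. RPS28, a small-subunit protein at the exit of the mRNA channel, was the highest member in all 9 libraries. Its level was 1881, 1699 and 2151 TPM at day 0, 1817, 1489 and 1271 at day 7, and 1247, 1719 and 1248 at day 15. RPL11, which with RPL5 and a small ribosomal RNA can bind the p53 regulator MDM2, followed with 1410, 1305 and 1574 TPM at day 0, 1322, 1220 and 1091 at day 7, and 841, 1175 and 958 at day 15. RPLP0, the base of the stalk that recruits translation factors, held 1439, 1115 and 1529 TPM at day 0, 1126, 971 and 928 at day 7, and 655, 963 and 773 at day 15. RPL11 and RPLP0 showed no overlap between the day 15 and day 0 libraries, whereas RPS28 did overlap.

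**Figure D1:**
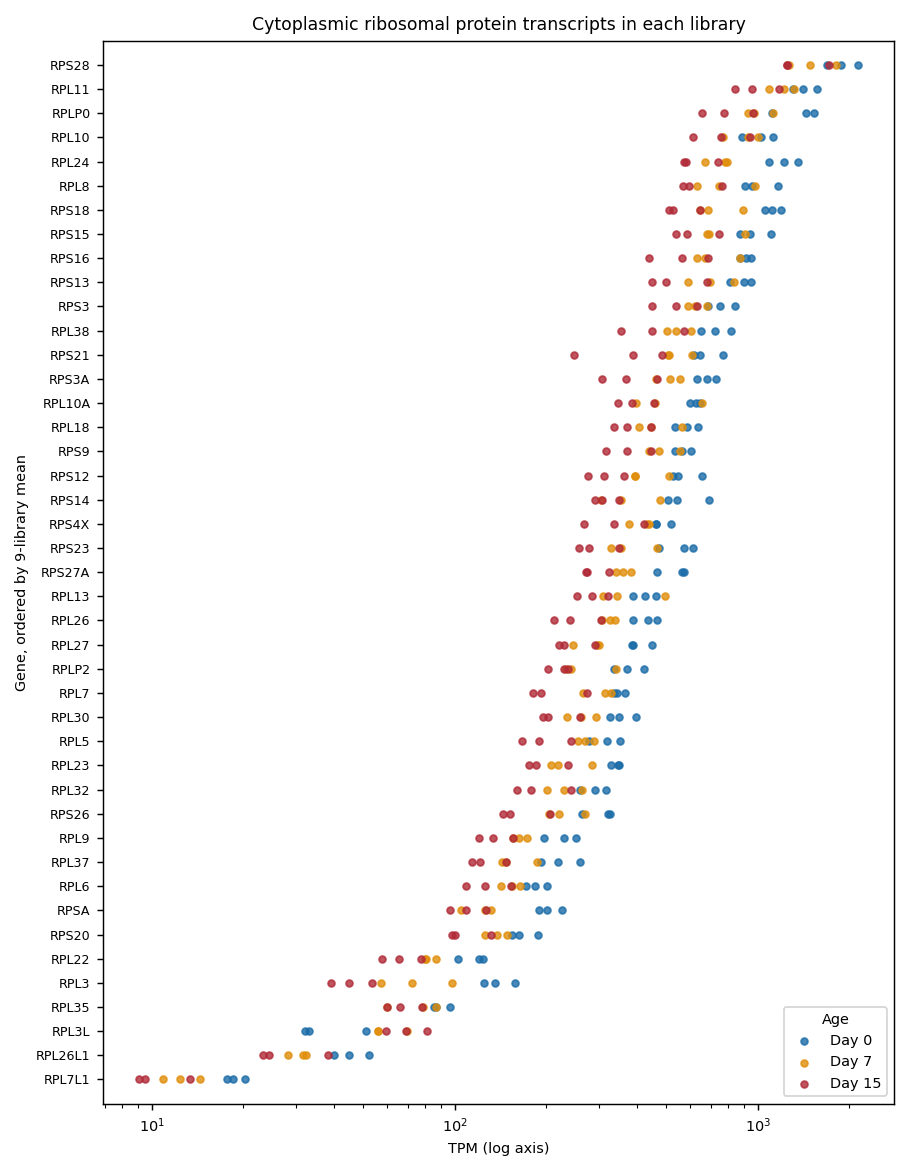
TPM of 43 of the 46 members on a log axis, 1 point per library, coloured by age, with genes ordered by their mean over 9 libraries. RPS28 is at the top in every library and RPL7L1 at the bottom, and for nearly every gene the day 0 points lie to the right of the day 15 points.

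The lowest members were the paralogs. RPL7L1, a relative of RPL7, was the lowest in all 9 libraries, with a mean of 14.04 TPM, and RPL26L1 and RPL3L came next with means of 35.0 and 56.3 TPM. RPL10L, a retrogene copy of RPL10 known from the testis of humans and mice, matched the name rule and was listed at 0 in all 9 libraries, which kept it out. The mean levels of the highest and lowest members differed 115-fold on the TPM scale, which corrects for transcript length. The sources used here do not state how reads shared with paralogs or processed pseudogenes, which are common for these genes, were assigned, so the split between such copies is uncertain. RPL18 has 2 entries under its symbol in the RefSeq gene table used for names and carries the same uncertainty.

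Summed over the 46 members, the family held 25794, 23780 and 28657 TPM at day 0, 23061, 19608 and 17698 at day 7, and 14069, 19474 and 15394 at day 15. The mean at day 15 was 16312 ± 2817 TPM, against 26077 ± 2451 TPM at day 0 (SD, n = 3 each), or 37.4% lower. All day 7 and all day 15 sums lay below all day 0 sums, while those of day 15 and day 7 overlapped. Taken as a share of TPM without the most abundant row, the family made up 2.60% ± 0.22 at day 15 and 3.75% ± 0.21 at day 0, a mean 30.7% lower. With the genes of the mitochondrial genome and the top 20 rows left out of the total, it made up 4.74% ± 0.17 at day 15 and 6.40% ± 0.46 at day 0, a mean 25.9% lower. The sum was therefore lower at day 15 on each of these bases, by differing amounts.

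**Figure D2:**
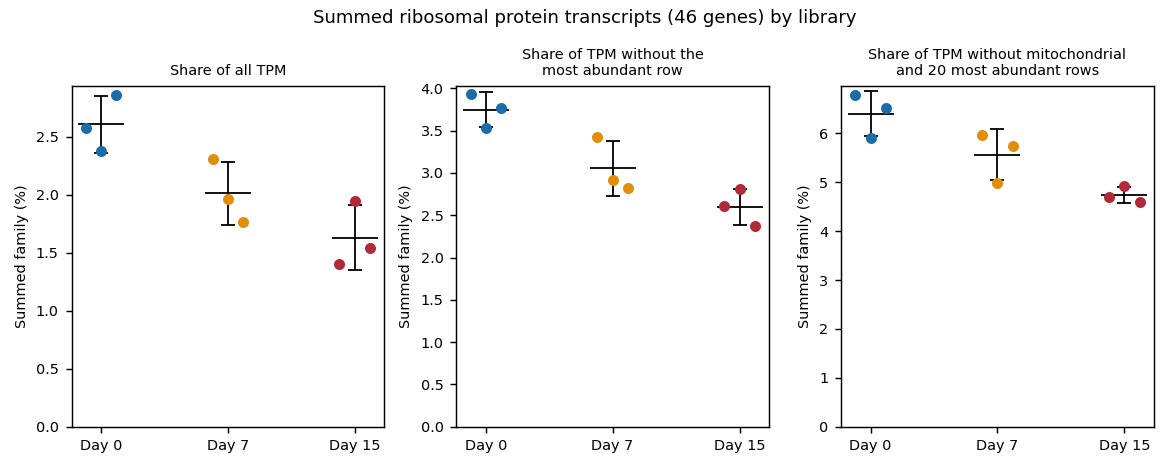
Summed family as a percentage of all TPM (left), of TPM without the most abundant row (middle) and of TPM without mitochondrial genes and the top 20 rows (right). Points are libraries and bars show the mean ± SD for 3 libraries per age, and in each panel the 3 day 15 libraries lie below the 3 day 0 libraries.

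Over the 2 weeks the fall ran through almost the whole family. At day 15 against day 0, 38 of the 46 members fell and 1, RPL3L, rose at an adjusted p under 0.05 (limma on log2(TPM + 1), Benjamini-Hochberg over 12268 genes). Of all genes tested, 18.4% fell and 5.53% rose. The median log2 fold change of the members was -0.72, against -0.19 for all genes, and the log2 fold changes of the fallen members ran between -1.59 and -0.53. In 42 members every day 15 library was below every day 0 library, as in 30.5% of all genes, and RPL3L was higher without overlap, as in 9.45% of all genes. The fall passed for 22 of 26 large-subunit members (median -0.70) and 16 of 20 small-subunit members (median -0.74). On median-of-ratios scaling, which brings the median of all genes to 0.01, the members' median was -0.48, with 28 fallen and RPL3L risen, where 15.7% of all genes fell and 15.3% rose. The count of changed members varied with single libraries, as did the share of all genes, 23.9% with every library. It was 8 members and 6.65% of all genes without replicate 6 of day 0, 22 members and 14.9% without replicate 4 of day 0, 22 members and 17.8% without replicate 1 of day 15, and 15 members and 10.9% without replicate 6 of day 15, while the median stayed between -0.86 and -0.61 in every fit that left out 1 library.

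**Figure D3:**
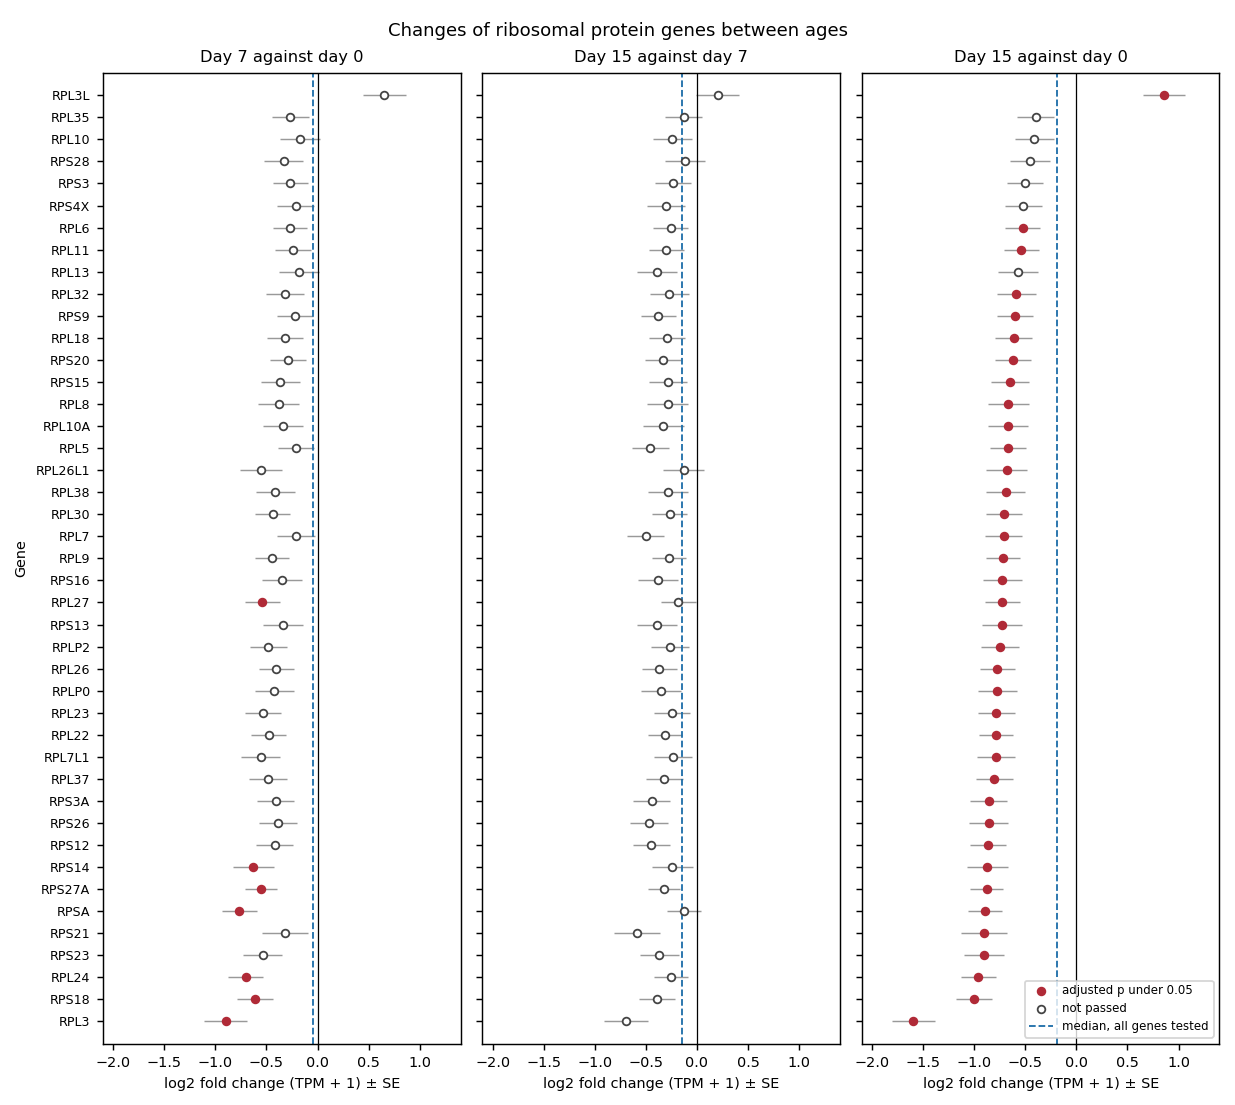
Log2 fold change of 43 of the 46 members on the log2(TPM + 1) scale with its standard error, for day 7 against day 0, day 15 against day 7 and day 15 against day 0. Filled points passed an adjusted p of 0.05 (7, 0 and 37 of those drawn), the dashed line is the median of all genes tested, and RPL3L alone lies to the right of 0 in all panels.

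Among large-subunit proteins, the largest fall was that of RPL3, a core protein that reaches toward the site of peptide bond formation and that is described with its paralog below. RPL24, which forms a bridge between the subunits, held 1226, 1089 and 1355 TPM at day 0, 795, 783 and 670 at day 7, and 570, 740 and 582 at day 15. Its day 7 and day 15 libraries were all below those of day 0, and the log2 fold change at day 15 against day 0 was -0.96 ± 0.17 (SE; limma adjusted p = 0.0041). RPL22, an RNA-binding protein with a role in lymphocyte development in mice, held 121, 103 and 124 TPM at day 0, 86.9, 79.9 and 80.4 at day 7, and 57.4, 77.5 and 65.3 at day 15. Here the 3 ages did not overlap, with a log2 fold change of -0.79 ± 0.17 at day 15 against day 0 (limma adjusted p = 0.0081).

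RPL23, another protein that binds MDM2, showed 345, 329 and 349 TPM at day 0, 284, 219 and 208 at day 7, and 176, 237 and 185 at day 15. RPL26, which lies near the exit of the peptide tunnel, showed 433, 387 and 466 TPM at day 0, 338, 325 and 306 at day 7, and 212, 305 and 241 at day 15. RPL27 showed 385, 388 and 449 TPM at day 0, 299, 295 and 246 at day 7, and 221, 290 and 229 at day 15. For all 3 genes the day 15 libraries lay below the day 0 libraries, and the log2 fold changes at day 15 against day 0 were -0.78 ± 0.18 for RPL23, -0.77 ± 0.17 for RPL26 and -0.73 ± 0.17 for RPL27 (SE; limma adjusted p = 0.010, 0.0097 and 0.011). The stalk members RPLP0 and RPLP2 fell by 0.78 ± 0.19 and 0.75 ± 0.18 on the log2 scale (limma adjusted p = 0.014 for each). The other large-subunit members that fell were RPL5, RPL6, RPL7, RPL8, RPL9, RPL10A, RPL11, RPL18, RPL30, RPL32, RPL37 and RPL38, besides the paralogs RPL7L1 and RPL26L1. Their smallest fall was that of RPL6, with a log2 fold change of -0.53 ± 0.17 (limma adjusted p = 0.042), and their largest that of RPL37, with -0.80 ± 0.18 (limma adjusted p = 0.010).

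In the small subunit, RPS18, a protein of the subunit's head, showed the largest fall. RPS18 held 1112, 1055 and 1196 TPM at day 0, 893, 683 and 643 at day 7, and 511, 644 and 524 at day 15. The day 15 libraries were below all of day 0, and the log2 fold change at day 15 against day 0 was -1.01 ± 0.18 (SE; limma adjusted p = 0.0038). RPS18 and RPL3 were the 2 members past a 2-fold difference in this comparison. RPSA, which is also known as the laminin receptor, held 202, 190 and 226 TPM at day 0, 132, 126 and 105 at day 7, and 96.7, 126 and 109 at day 15. Its day 15 and day 7 libraries overlapped and both were clear of day 0, with a log2 fold change of -0.89 ± 0.17 at day 15 against day 0 (limma adjusted p = 0.0054). RPS27A, made as a fusion with ubiquitin, held 561, 465 and 571 TPM at day 0, 382, 359 and 342 at day 7, and 273, 323 and 270 at day 15. None of its 3 ages overlapped, and the log2 fold change was -0.88 ± 0.16 at day 15 against day 0 (limma adjusted p = 0.0045).

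RPS14, whose loss of 1 copy underlies the anaemia of the 5q- syndrome in humans, held 541, 506 and 692 TPM at day 0, 476, 354 and 304 at day 7, and 291, 347 and 306 at day 15. RPS23, a protein of the decoding centre, held 570, 474 and 611 TPM at day 0, 466, 353 and 328 at day 7, and 258, 350 and 278 at day 15. RPS26, which contacts mRNA upstream of the start codon, held 320, 263 and 325 TPM at day 0, 268, 222 and 205 at day 7, and 144, 207 and 152 at day 15. In RPS14 the replicate 6 library of day 0 stood above the rest, and in all 3 genes the day 15 libraries lay below those of day 0. RPS12 held 545, 526 and 657 TPM at day 0, 510, 392 and 393 at day 7, and 275, 362 and 311 at day 15. RPS3A held 678, 629 and 728 TPM at day 0, 555, 512 and 463 at day 7, and 306, 465 and 367 at day 15. The log2 fold changes of these 5 genes at day 15 against day 0 were alike, at -0.87 ± 0.20 for RPS14, -0.90 ± 0.19 for RPS23, -0.86 ± 0.19 for RPS26, -0.87 ± 0.18 for RPS12 and -0.86 ± 0.18 for RPS3A, and each passed the limma test. Among the other fallen small-subunit members were RPS9, RPS13, RPS15, RPS16, RPS20 and RPS21, between RPS9 at -0.60 ± 0.17 (limma adjusted p = 0.027) and RPS21 at -0.90 ± 0.23 (limma adjusted p = 0.015).

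Of the 46 members, 7 did not pass at day 15 against day 0, and all 7 had negative log2 fold changes. Among them were RPL10, RPL13 and RPL35 of the large subunit and RPS3, RPS4X and RPS28 of the small subunit, and these 6 had log2 fold changes between -0.57 and -0.40 and limma adjusted p between 0.050 and 0.14. In RPL10, which joins the large subunit late in its assembly, the groups overlapped, with 614, 941 and 757 TPM at day 15, against 1028, 890 and 1126 TPM at day 0. RPL13, RPL35, RPS3 and RPS4X showed no overlap although they missed the threshold.

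In the first week, 7 of the 46 members fell and none rose, where 8.88% of all genes fell and 7.67% rose. The 7 were RPL3, RPL24, RPL27, RPSA, RPS14, RPS18 and RPS27A. Their log2 fold changes at day 7 against day 0 were -0.90 ± 0.21 for RPL3, -0.77 ± 0.17 for RPSA, -0.71 ± 0.17 for RPL24, -0.63 ± 0.20 for RPS14, -0.61 ± 0.18 for RPS18, -0.56 ± 0.16 for RPS27A and -0.54 ± 0.17 for RPL27 (SE; limma adjusted p between 0.014 and 0.049). The members' median was -0.38, against -0.04 for all genes, and 28 members were lower at day 7 without overlap, as were 23.8% of all genes. RPL3L was higher without overlap, as were 17.6% of all genes. At an unadjusted p under 0.05 there were 22 members, as there were 33.8% of all genes. The count of changed members again varied with single libraries, and the share of all genes, 16.6% with every library, varied too. Without replicate 4 of day 0 it was 0 members and 5.07% of all genes, and without replicate 6 of day 0 it was 0 members and 3.2%. It was 1 member and 7.07% without replicate 6 of day 7, 3 members and 10.1% without replicate 5 of day 7, and 3 members and 12.3% without replicate 6 of day 15. It was 11 members and 21.9% without replicate 1, and 12 members and 19.8% without replicate 2, of day 15. Leaving the most abundant row out of TPM gave 17 changed members, 16 fallen and RPL3L risen, where 13.6% of all genes fell and 14.5% rose.

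In the second week no member passed at day 15 against day 7, where 0.171% of all genes changed (limma). At an unadjusted p under 0.05 there were 9 members and 12.8% of all genes. The lowest adjusted p of a member was 0.23, and 45 of 46 log2 fold changes were negative, as were 73.5% of those of all genes. The members' median was -0.29, against -0.15 for all genes. In 8 members the day 15 libraries lay wholly below those of day 7, as in 17.9% of all genes. Mean TPM ran in the order day 0, day 7, day 15 from high to low in 45 of 46 members. This order was not counted over all genes, so it is not shown to be particular to the members. The first step minus the second, tested as a contrast of its own, passed for 0 members in limma and for 1.92% of all genes (at an unadjusted p under 0.05, for 0 members and 17.9% of all genes), so no member was shown to change more in one week than in the other. A test over the 3 ages at once (limma F test) passed for 27 of 46 members and 22.0% of all genes, but for 1 member and 3.72% of all genes without replicate 6 of day 0, 5 members and 8.48% without replicate 4 of day 0, and 5 members and 11.7% without replicate 6 of day 15.

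RPL3 and RPL3L moved in opposite directions. RPL3L, the striated-muscle paralog that can take the place of RPL3 in the ribosome, held 33.0, 50.8 and 32.0 TPM at day 0, 55.7, 55.7 and 69.6 at day 7, and 69.1, 59.4 and 81.0 at day 15. RPL3 held 136, 125 and 158 TPM at day 0, 98.0, 72.3 and 57.3 at day 7, and 44.9, 53.2 and 39.1 at day 15. For both genes the day 7 and day 15 libraries were clear of day 0, and for RPL3 the 3 ages did not overlap at all. At day 15 against day 0 the log2 fold change was 0.86 ± 0.21 for RPL3L (SE; limma adjusted p = 0.014) and -1.59 ± 0.21 for RPL3 (limma adjusted p = 0.0011). At day 7 against day 0 it was 0.65 ± 0.21 for RPL3L, which missed the threshold (limma adjusted p = 0.051), and -0.90 ± 0.21 for RPL3 (limma adjusted p = 0.017). At day 15 against day 7 the values were 0.20 ± 0.21 for RPL3L and -0.69 ± 0.21 for RPL3, and neither passed (limma adjusted p = 0.71 and 0.23). The call for RPL3 at day 15 against day 0 was kept in all 22 other settings tried, while that for RPL3L was lost without replicate 4 or replicate 6 of day 0, without replicate 6 of day 15 and with the replicate number as a block.

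**Figure D4:**
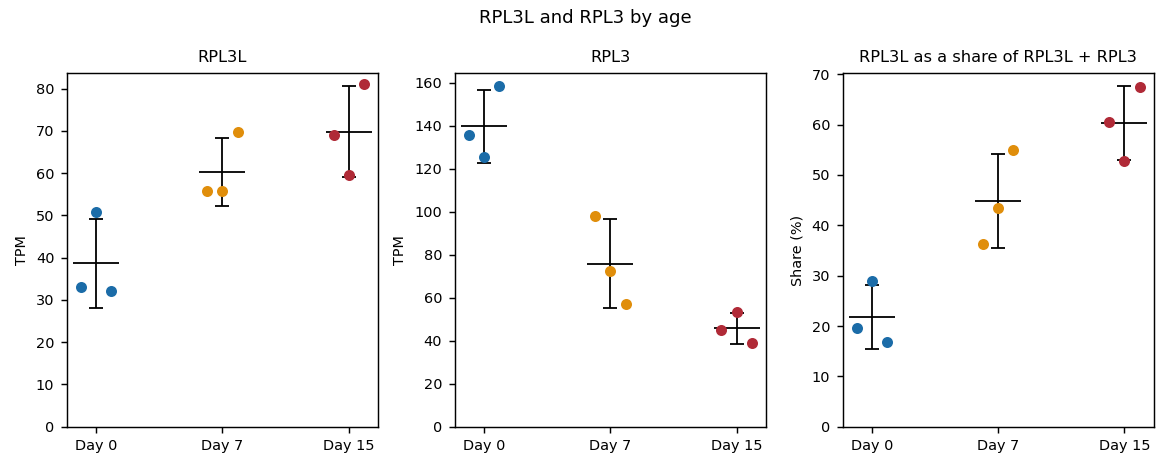
TPM of RPL3L (left) and RPL3 (middle), and RPL3L as a percentage of RPL3L plus RPL3 (right), by age. Points are libraries and bars the mean ± SD of 3 libraries, and RPL3L exceeds RPL3 in 0 of 3 libraries at day 0, 1 of 3 at day 7 and 3 of 3 at day 15.

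As a share of the pair, which does not depend on the total of the library, RPL3L made up 19.6%, 28.9% and 16.8% at day 0, 36.2%, 43.5% and 54.9% at day 7, and 60.6%, 52.8% and 67.4% at day 15. The mean was 60.3% ± 7.3 at day 15 and 21.8% ± 6.3 at day 0 (SD, n = 3 each), a difference of 38.5 percentage points, with no overlap in either comparison against day 0. The exact two-sided permutation p was 0.10 for day 15 and for day 7 against day 0, the smallest that 3 against 3 libraries allow, and 0.20 for day 15 against day 7 (0.15, 0.15 and 0.26 after Benjamini-Hochberg adjustment over 9 tests). The sum of both genes was 116 ± 4 TPM at day 15, against 178 ± 11 TPM at day 0, or 35.2% lower, beside the 37.4% of the whole family. That sum made up 0.72% ± 0.13 of the family at day 15 and 0.69% ± 0.05 at day 0. RPL3L is thus the member that went against the family, and RPL3 the member that fell furthest, to 32.7% of its day 0 mean, where the median member kept 61.4%.

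The other paralogs fell with the family. RPL7L1 held 18.6, 17.7 and 20.4 TPM at day 0, 12.4, 14.5 and 10.9 at day 7, and 9.47, 13.4 and 9.08 at day 15, and its partner RPL7 held 343, 337 and 366 TPM at day 0, 327, 313 and 265 at day 7, and 181, 273 and 193 at day 15. Their log2 fold changes at day 15 against day 0 were -0.79 ± 0.19 and -0.71 ± 0.18 (limma adjusted p = 0.012 for RPL7L1 and 0.017 for RPL7). RPL7L1 made up 4.00% ± 0.40 of its pair at day 7, below the 5.14% ± 0.13 of day 0 without overlap (exact permutation p = 0.10, adjusted 0.15). At day 15 it made up 4.71% ± 0.24, above day 7 and below day 0 without overlap (exact permutation p = 0.10 and adjusted 0.15 for each). RPL26L1, close in sequence to RPL26, held 40.0, 44.8 and 52.1 TPM at day 0, 31.6, 32.3 and 28.2 at day 7, and 23.2, 38.1 and 24.4 at day 15, with a log2 fold change of -0.68 ± 0.20 at day 15 against day 0 (limma adjusted p = 0.031). It made up 10.1% ± 1.0 of its pair at day 15 and 9.63% ± 1.03 at day 0, which overlapped (exact permutation p = 0.70). At day 7 it made up 8.67% ± 0.32, so that day 15 lay 1.4 percentage points above day 7 without overlap (exact permutation p = 0.10, adjusted 0.15).

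To see which members changed relative to the others, TPM were divided by the family's sum in each library, and the test was repeated over all genes. At day 15 against day 0, 4 of 46 members then passed, among them RPL3L up and RPL3 and RPS18 down, beside 37.2% of all genes up and 3.33% down on this scale. The log2 changes relative to the family were 1.53 ± 0.28 for RPL3L, -0.92 ± 0.13 for RPL3 and -0.32 ± 0.10 for RPS18 (SE; limma adjusted p = 0.0036, 0.0017 and 0.028). At day 7 against day 0, RPL3L rose by 1.02 relative to the family, while RPL3, RPSA and RPL24 fell by 0.53, 0.39 and 0.33. On this scale 25.3% of all genes rose and 4.30% fell at day 7. No member passed at day 15 against day 7 in limma on this scale, where 0.106% of all genes did, and 1 member, RPL3, had an unadjusted p under 0.05, as did 13.8% of all genes. The share of a member in the family total varied less than 1.5-fold over the 9 libraries in 43 of 46 members. Only RPL3L (4.71-fold) and RPL3 (2.17-fold) exceeded 2-fold, followed by RPS21 (1.63-fold), and RPL30 was the most even (1.09-fold). The range of RPS21 rested on 1 library, replicate 1 of day 15, with a share of 1.76%, against 2.48% to 2.87% in the others.

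**Figure D5:**
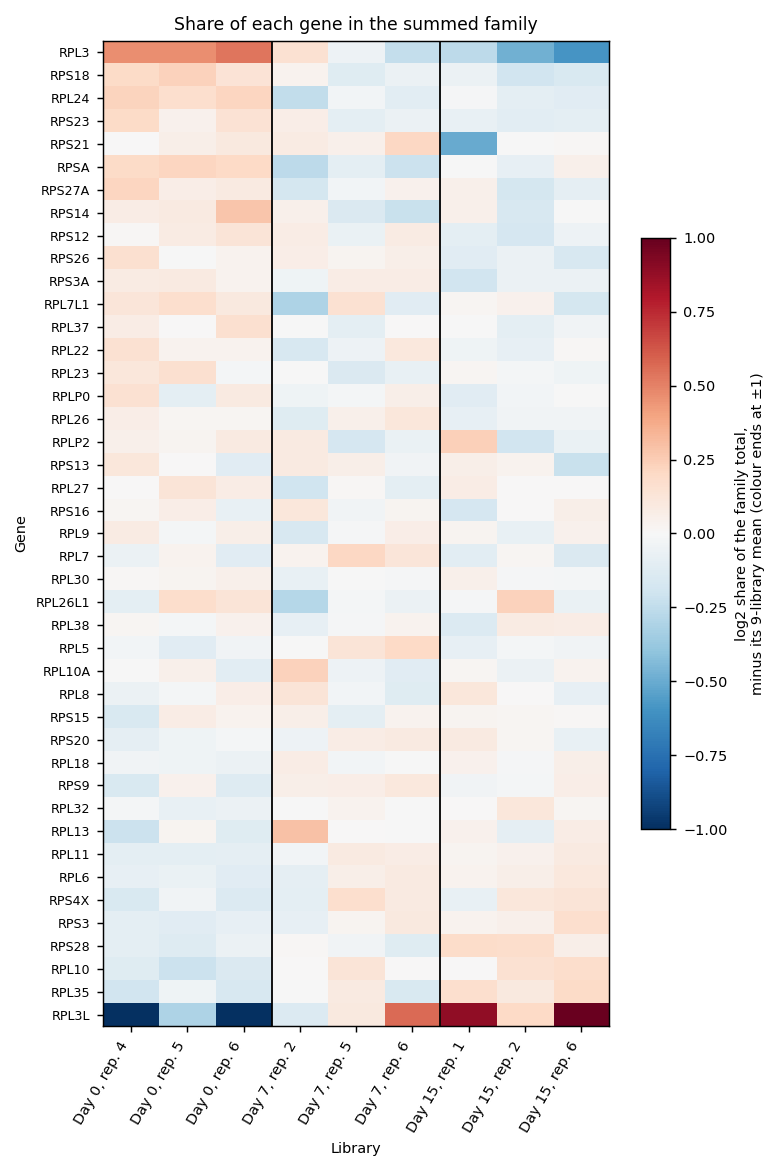
Share of 43 of the 46 members in the summed family, as log2 of the share minus its mean over 9 libraries, with libraries in columns and genes in rows ordered by their change at day 15 against day 0 on this scale. RPL3 at the top turns from high to low and RPL3L at the bottom from low to high with age, while most rows stay pale, as their shares vary less than 1.5-fold.

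Within an age the members also moved as a block. Replicate 6 of day 0 was the highest of its age in 44 of 46 members and replicate 5 the lowest in 39. At day 7, replicate 2 was the highest in 42 members and replicate 6 the lowest in 42, and at day 15 replicate 2 was the highest in 45. The members therefore vary together between libraries, and their counts are not independent of each other. Whether this came from the preparation of a library or from the animal or tissue piece was not tested. The same counts were not made over all genes, so this trait is not shown to be particular to the members. The median-of-ratios scaling factor was also highest of its age in replicate 6 of day 0 (1.19) and replicate 2 of day 15 (1.06). It was lowest of its age in replicate 6 of day 7 (0.95). Replicate 5 of day 0 (1.07) was not the lowest by this factor, nor replicate 2 of day 7 (1.01) the highest.

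A further 15 rows carried an Ensembl identifier in place of a name and were matched to ribosomal protein symbols through the gene name table, which puts them outside the name rule. They were RPL4, RPL7A, RPL14, RPL23A, RPL28, RPL29, RPL36A, RPLP1, RPS2, RPS7, RPS15A, RPS24, RPS25, RPS27L and RPS29. At day 15 against day 0, 10 of these 15 fell and none rose, where 18.4% of all genes fell and 5.53% rose. Their median log2 fold change was -0.74, near the -0.72 of the members. At day 7 against day 0 only RPS25 fell, where 8.88% of all genes did. RPS25 held 178, 146 and 216 TPM at day 7, against 322, 294 and 352 TPM at day 0 (log2 fold change -0.85 ± 0.18, limma adjusted p = 0.012). RPS27L, a paralog of RPS27 that p53 induces in human cells, had the smallest difference at day 15 against day 0, with 7.04, 12.02 and 8.77 TPM at day 15, against 9.73, 10.9 and 11.8 TPM at day 0 (log2 fold change -0.22 ± 0.20, limma adjusted p = 0.42).

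Other mRNAs known to carry a TOP tract were set beside the family. Of 21 listed, 16 passed the filter, and 2 of these fell at day 15 against day 0 while none rose, with a median log2 fold change of -0.34, where 18.4% of all genes fell. On median-of-ratios scaling 2 fell and 2 rose (median -0.11), where 15.7% of all genes fell and 15.3% rose. NPM1, a nucleolar chaperone of ribosome assembly, averaged 45.8 ± 12 TPM at day 15, against 97.7 ± 10.4 TPM at day 0 (log2 fold change -1.10 ± 0.19, limma adjusted p = 0.0040). It was also the 1 of the 16 that fell at day 7 against day 0, where 8.88% of all genes fell. That day 7 call was lost in 10 of 22 other settings. RACK1, a scaffold protein bound to the small subunit, averaged 418 ± 83 TPM at day 15, against 673 ± 74 TPM at day 0 (log2 fold change -0.70 ± 0.19, limma adjusted p = 0.019). TPT1, the most abundant of this list, averaged 2479 ± 568 TPM at day 15, against 3387 ± 454 TPM at day 0, a difference that did not pass (limma adjusted p = 0.10). Whether these mRNAs differed from the members was not tested.

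A list of genes of mTORC1 and of TOP mRNA control also held MYC, which belongs to neither group. Of its 19 measured genes, 8 fell and none rose at day 15 against day 0, with a median of -0.43. At day 7 against day 0, 6 fell, where 18.4% of all genes fell at day 15 and 8.88% at day 7. On median-of-ratios scaling 8 fell and 1 rose at day 15 against day 0 (median -0.24), where 15.7% of all genes fell and 15.3% rose. MYC, a transcription factor that drives ribosome production, averaged 6.37 ± 1.98 TPM at day 15, against 27.0 ± 7.9 TPM at day 0 (log2 fold change -1.92 ± 0.25, limma adjusted p = 0.0011). RHEB, the GTPase that activates mTORC1, averaged 44.3 ± 7.7 TPM at day 15, against 104 ± 18 TPM at day 0 (-1.20 ± 0.20, limma adjusted p = 0.0030). EIF4EBP1, a translation repressor that mTORC1 inactivates, averaged 11.9 ± 2.3 TPM at day 15, against 25.9 ± 3.6 TPM at day 0 (-1.07 ± 0.19, limma adjusted p = 0.0040). The list thus holds fallen genes that activate translation and fallen genes that repress it. LARP1B, a relative of LARP1, averaged 6.68 ± 1.29 TPM at day 15, against 14.9 ± 2.7 TPM at day 0 (-1.05 ± 0.21, limma adjusted p = 0.0063). The others of the list that fell at day 15 against day 0 were RPTOR, MLST8, LARP4 and EIF4E. Their calls were lost in 6, 1, 6 and 10 of 22 other settings. MTOR averaged 10.8 ± 0.8 TPM at day 15, against 10.6 ± 1.6 TPM at day 0. LARP1 averaged 18.2 ± 2.7 TPM at day 15, against 28.1 ± 12.1 TPM at day 0. Neither passed (limma adjusted p = 0.88 for MTOR and 0.20 for LARP1).

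Dedicated chaperones escort single ribosomal proteins to the nucleolus. Of 7 measured genes listed as such chaperones and related factors, 5 fell at day 15 against day 0 while none rose, with a median of -0.64, where 18.4% of all genes fell. GRWD1, whose yeast relative Rrb1 is the chaperone of the RPL3 protein, averaged 3.44 ± 0.98 TPM at day 15, against 10.1 ± 1.8 TPM at day 0. Its log2 fold change was -1.33 ± 0.22 at day 15 against day 0 (limma adjusted p = 0.0029) and -1.07 ± 0.22 at day 7 against day 0 (limma adjusted p = 0.010). PDCD2L, related to the yeast chaperone of the RPS2 protein, averaged 6.02 ± 0.87 TPM at day 15, against 11.2 ± 0.5 TPM at day 0 (-0.81 ± 0.19, limma adjusted p = 0.011). AAMP, related to the yeast chaperone of the RPL10 protein, averaged 24.6 ± 2.3 TPM at day 15, against 40.5 ± 5.2 TPM at day 0 (-0.69 ± 0.17, limma adjusted p = 0.014). BTF3, the most abundant of the list and a part of the nascent-chain complex at the peptide exit rather than a chaperone of 1 ribosomal protein, averaged 160 ± 38 TPM at day 15, against 246 ± 24 TPM at day 0 (-0.64 ± 0.20, limma adjusted p = 0.036), and HEATR3, whose yeast relative escorts the RPL5 and RPL11 proteins, was the other that fell (-0.59 ± 0.19, limma adjusted p = 0.047). The call for HEATR3 was lost in 13 of 22 other settings. GRWD1, AAMP and PDCD2L also fell at day 7.

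Among 7 measured genes of striated muscle set beside RPL3L, 2 rose and none fell at day 15 against day 0, with a median of -0.05, where 5.53% of all genes rose and 18.4% fell. CKM, the muscle creatine kinase, averaged 488 ± 104 TPM at day 15, against 177 ± 9 TPM at day 0 (log2 fold change 1.44 ± 0.21, limma adjusted p = 0.0019). EEF1A2, the elongation factor paralog that replaces EEF1A1 in muscle and neurons, averaged 1385 ± 21 TPM at day 15, against 854 ± 96 TPM at day 0 (0.70 ± 0.16, limma adjusted p = 0.010). The other 5 did not pass, at 0.54 ± 0.21 for MYL2, -0.05 ± 0.18 for TNNT2, -0.22 ± 0.18 for TNNI3, -0.27 ± 0.18 for MYH7 and -0.55 ± 0.21 for TNNI1. On median-of-ratios scaling MYL2 passed (0.78 ± 0.20, limma adjusted p = 0.018), and the values of TNNT2 and TNNI3 turned positive (0.19 and 0.023).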

How the data were processed

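Poly(A)-selected, stranded RNA-seq libraries of pig left ventricle were measured at 3 ages with 3 libraries each. The authors deposited 1 table of TPM per gene and library. The submitters' processing notes name kallisto 0.43.1, HISAT2 2.0.5 and Trimmomatic 0.33, without a role or order. Not given in the sources used here are the genome build and the treatment of reads shared between genes. TPM keep no read depth, so the counting error of each value is unknown. Libraries were grouped by the age label.

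From there, rows with TPM of at least 1 in at least 3 of 9 libraries (12268) were tested with limma 3.58.1 in R 4.3.3 on log2(TPM + 1), with 1 mean per age, all 9 libraries and 6 residual degrees of freedom, a mean-variance trend, and Benjamini-Hochberg adjustment over all rows at 0.05. A fold change on this scale understates that of low genes. Paralog shares were compared by exact two-sided permutation. The limma procedure was also run on simulated data with independent noise for each gene and library. Those data lack the variation between libraries that the members share, so no conclusion is drawn from them. Of 7534 rows listed by Ensembl identifier, 889 received a symbol from the gene name table. All 46 members matched the RefSeq gene table by symbol. Alternatives were other pseudocounts, filters, scalings and fits, a replicate block and leaving out each library. Named genes were the 14 members with the smallest F test p, paralogs with partners, the 3 most abundant members, members at the extremes of a comparison or of the filter, and from each list up to 4 genes past the threshold and the most abundant one, and a few more were named after their values were seen (RPL10, RPS25, RPS27L, MTOR, LARP1, RPTOR, MLST8, LARP4, EIF4E and HEATR3). The members and gene lists were chosen with earlier results of these data known. The sums of the RPL3 pair were added after seeing the data. Values of 3 single members are not reported here, although these members enter all counts, medians and sums.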

Additional observations from a re-analysis of the deposited data

How the results depend on the processing

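The members' median stayed negative without any 1 library in all 3 comparisons, and the summed TPM stayed lower at day 15 than at day 0 with median-of-ratios scaling, without mitochondrial and the 20 most abundant genes and without the most abundant row. The number of members changed at day 7 against day 0 (7) was 13 with median-of-ratios scaling (30.9% of all genes), 11 without mitochondrial and the 20 most abundant genes (29.2%), 17 without the most abundant row (28.1%), 4 with no filter (6.98%) and 4 scaled to the family total (29.6%). It was 0 to 12 when 1 library was left out, where 3.2% to 21.9% of all genes changed. At day 15 against day 0 (39) it was 4 scaled to the family total (40.5% of all genes). When 1 library was left out it was 8 to 43 (6.65% to 26.6% of all genes). Over the 3 ages (27) it was 3 scaled to the family total (37.5%) and 1 to 39 when 1 library was left out (3.72% to 25.9%). With replicate number as a block, which leaves 2 residual degrees of freedom, the counts were 1, 6 and 1 (6.99%, 7.49% and 6.58% of all genes). Between libraries with the same replicate number, correlations of the deviations from the age means ran from -0.21 to 0.17. Libraries with unlike numbers were not compared, so whether a shared number marks a shared origin cannot be told. The cause of these shifts was not tested. No member passed at day 15 against day 7, nor did the first and second steps differ, under any setting run.

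The log2 ratio of summed TPM at day 15 against day 0 was -0.68, -0.45 with median-of-ratios scaling and -0.43 without mitochondrial and the 20 most abundant genes. The RPL26L1 share of its pair differed by 0.43 percentage points at day 15 against day 0 and by -0.15 to 0.86 when 1 library was left out. Scaling to the family total centres the family by construction, and on it the day 15 against day 0 value turned positive for genes that include RPS15 (0.035), RPL32 (0.095), RPL8 (0.020), RPS20 (0.062), RPL6 (0.16), RPL18 (0.072), RPL10A (0.017), RPL5 (0.014), RPL11 (0.15), RPS9 (0.084), RPS24 (0.16) and BTF3 (0.042). RPL3 and RPS18 kept their calls at day 15 against day 0 under all 22 alternatives, and the other fallen members named above lost theirs in 1 to 12. The unknown depth limits what can be said of low rows such as RPL7L1 and GRWD1.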
